A study of Mus musculus with 14 samples.

Results

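Genes of the machinery that moves mitochondria along microtubules and from one cell to another, 8 in number, were followed in nestin-expressing bone marrow stromal cells (BMSCs) of leukemic and normal mice. They were chosen by name, as rows of the gene table, for their known roles: the Miro GTPases Rhot1 and Rhot2, the adaptors Trak1 and Trak2, the motor Kif5b, the gap junction gene Gja1, the nanotube gene Tnfaip2 and the ectoenzyme gene Cd38. All 8 were among the 27099 genes of the table.

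Miro proteins sit in the outer mitochondrial membrane and hold the TRAK adaptors, which in turn bind the kinesin motor that carries mitochondria toward the cell edge. Between cells, mitochondria can travel through tunneling nanotubes, thin actin bridges that TNFAIP2 (M-Sec) helps to form, or can be taken up at contacts in which the gap junction protein Cx43, the product of Gja1, takes part. CD38 makes the calcium messenger cyclic ADP-ribose from NAD and has been linked to the transfer of mitochondria in marrow. The study asked how nestin-expressing stromal cells support leukemic blasts, with the passing on of mitochondria among the routes considered. The question here is how much of these transcripts the stromal cells held, and whether that differed with leukemia or with nestin level.

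Stromal cells negative for CD45, CD31, Ter119 and DAPI were sorted by the brightness of a Nestin-GFP reporter into Nes-GFP high and Nes-GFP low BMSCs. The reporter is GFP driven by regulatory elements of the nestin gene. AML mice were primary, non-transplanted iMLL-AF9 mice (rtTA;MLL-AF9), which carry rtTA in the ROSA26 locus and a human MLL-AF9 fusion under a tetracycline-response element. They received doxycycline, were considered leukemic once white blood cell numbers were high, and were sampled upon leukemia development. Normal mice carry no allele in the labels, and the methods give sucrose water as the vehicle. The libraries numbered 2 from AML Nes-GFP high, 2 from normal Nes-GFP high, 4 from AML Nes-GFP low and 6 from normal Nes-GFP low BMSCs. AML and doxycycline cannot be told apart in this design. Adult mice of both sexes were used, and single mice or pools were taken without a statement of which library is which, so p-values measure the spread between libraries, part of which may be technical.

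The libraries held 5615941 to 11436652 counts, and 14842 to 20197 genes had at least 1 count. Levels are given as CPM, counts scaled to a common library size after correction by the trimmed mean of M-values (TMM). On the plain totals, 3 counts, taken as the floor of detection, were 0.262 to 0.534 CPM. Nes itself stood at 32.3 and 26.7 CPM in AML Nes-GFP high and at 36.0 CPM in normal Nes-GFP high replicate 2, but at 2.27 CPM in normal Nes-GFP high replicate 1, against 0 to 5.70 CPM among the 10 libraries of Nes-GFP low BMSCs. The library labelled normal Nes-GFP high replicate 1 thus went against its label in Nes and also had the fewest genes, 14842. Ptprc, the gene of CD45, reached 447 CPM in AML Nes-GFP low replicate 3 and 476 and 483 CPM in normal Nes-GFP low replicates 3 and 4, although the sort was negative for CD45.

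Per kilobase of exon, Tnfaip2 and Gja1 had the highest medians of the 8 genes. Their medians over the 14 libraries were 32.4 CPM per kb for Tnfaip2 and 28.7 for Gja1, followed by 8.42 for Kif5b, 5.78 for Rhot1, 4.42 for Trak1, 3.84 for Trak2, 1.88 for Rhot2 and 0.0369 for Cd38. Gja1 ranked first in 7 libraries, Tnfaip2 in 6 and Kif5b in 1. The ranges of Tnfaip2 (8.60 to 71.6 CPM per kb) and Gja1 (1.39 to 88.4) covered each other, and those of Kif5b (0.553 to 16.2), Rhot1 (0.0835 to 14.6), Trak1 (0.14 to 11.2) and Trak2 (0 to 10.9) did too, so these neighbours cannot be ranked beyond their spread. Cd38 was last in 11 of the 14 libraries, and Rhot2 and Gja1 were each last in 1. For Gja1 that was AML Nes-GFP low replicate 3, where it was at 1.39 CPM per kb and Cd38 at 1.5.

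**Figure D1:**
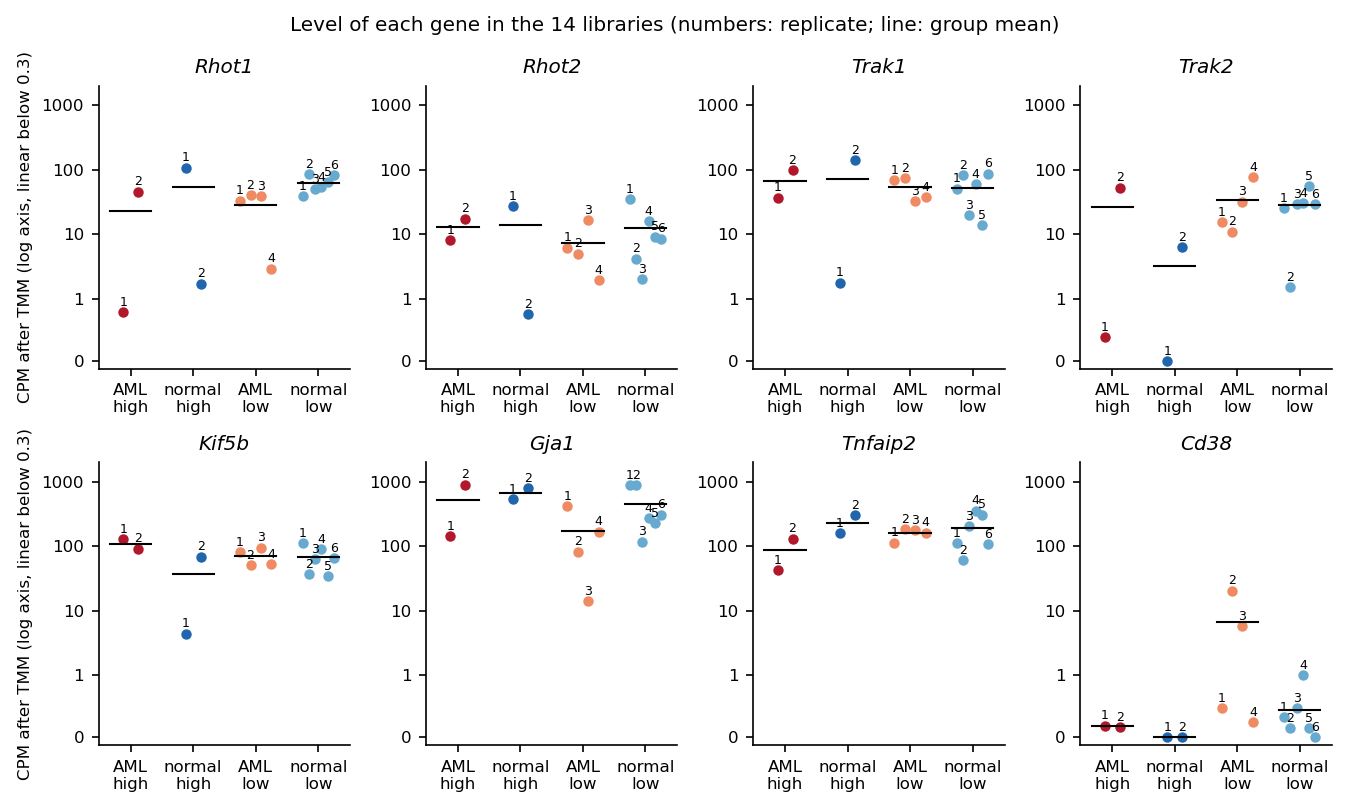
Level of each of the 8 genes in every library, in CPM after TMM on an axis that is logarithmic above and linear below 0.3 CPM, with 1 panel a gene, points numbered by replicate and a line at the group mean. Gja1 and Tnfaip2 stay above 14 CPM in every library, the Miro and TRAK genes drop to near 0 in single libraries, and Cd38 rises above 2 CPM only in AML Nes-GFP low replicates 2 and 3.

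Rhot1 (ENSMUSG00000017686, GRCm38 chr11:80209019-80267907, plus strand) encodes Miro1, the mitochondrial anchor. In Nes-GFP low BMSCs it was measured at 33.2, 40.1, 38.6 and 2.93 CPM in the AML libraries and at 39.3 to 85.5 CPM in the 6 normal libraries, with a median of 59.0. In all, 3 of the AML libraries lay below every normal library, and AML replicate 2 lay just above the lowest normal one. The group means were 28.7 ± 17.4 CPM (SD, n = 4) for AML and 62.4 ± 18.3 CPM (SD, n = 6) for normal mice. The log2 fold change was -1.12 (SE 1.07, 95% interval -3.43 to 1.19, edgeR adjusted p = 1.0) and did not pass the test. That SE comes from a fit in which all 4 groups share the estimate of the spread. The wide gaps within the Nes-GFP high pairs therefore enter it. Without AML replicate 4, the lowest library, the log2 fold change was -0.71.

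In Nes-GFP high BMSCs, Rhot1 was set by single libraries. It stood at 0.619 and 45.6 CPM in AML replicates 1 and 2 and at 108 and 1.70 CPM in normal replicates 1 and 2. Each group thus held 1 library in the range of the Nes-GFP low libraries or above and 1 library below 2 CPM. The log2 fold change of AML against normal was -1.25 (SE 1.63, edgeR adjusted p = 0.892), and it was 3.90 without normal replicate 1 and -2.27 without normal replicate 2.

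Rhot2 (ENSMUSG00000025733, GRCm38 chr17:25838457-25844851, minus strand) encodes Miro2, the paralog of Miro1. It was the lower of the pair in 13 of the 14 libraries in CPM and in 11 of 14 per kilobase. Its levels were 27.2 and 0.567 CPM in normal against 8.18 and 17.4 CPM in AML Nes-GFP high BMSCs. Those of Nes-GFP low BMSCs were 6.19, 5.0, 16.5 and 1.96 CPM in AML and 2.03 to 34.8 CPM, median 8.83, in normal mice. These groups overlapped in both populations, with log2 fold changes of -0.12 (SE 1.57) in Nes-GFP high and -0.75 (SE 1.03) in Nes-GFP low BMSCs. Rhot2 overlaps Wdr90 and Gm20683 on its own strand and Gm26694 on the other, and reads in the shared stretches cannot be assigned to one of them.

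Trak1 (ENSMUSG00000032536, GRCm38 chr9:121297502-121474918, plus strand) encodes an adaptor that ties Miro to kinesin and dynein. Its levels in Nes-GFP low BMSCs were 69.5, 74.1, 32.4 and 37.3 CPM in AML and 14 to 86.8 CPM, median 55.6, in normal mice. The AML values lay inside the normal range, and the group means differed little (53.3 ± 21.5 CPM, SD, n = 4, against 52.5 ± 30.7, SD, n = 6). The log2 fold change was 0.02 with a wide 95% interval of -1.80 to 1.85. In Nes-GFP high BMSCs Trak1 was at 36.8 and 97.7 CPM in AML, and at 1.77 and 140 CPM for replicates 1 and 2 of normal mice, so the highest and the lowest of the 14 libraries were the 2 normal replicates.

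Trak2 (ENSMUSG00000026028, GRCm38 chr1:58900449-58973430, minus strand) encodes the second adaptor. It was below Trak1 in 11 of 14 libraries in CPM and in 10 of 14 per kilobase. In Nes-GFP high BMSCs it was at 0.248 and 52.7 CPM in AML, and at 0 and 6.38 CPM for replicates 1 and 2 of normal mice, and the 0 allows up to 3 counts, or 0.365 CPM, in that library. AML replicate 2 thus held more Trak2 than the other 3 Nes-GFP high libraries. The log2 fold change of 3.05 had an SE of 2.12 (edgeR adjusted p = 0.614) and was -3.63 without AML replicate 2. Among Nes-GFP low BMSCs Trak2 was at 15.5, 11.0, 31.9 and 77.4 CPM in AML and at 1.51 to 55.6 CPM, median 29.4, in normal mice, with overlapping groups and a log2 fold change of 0.24 (SE 1.25).

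Kif5b (ENSMUSG00000006740, GRCm38 chr18:6201002-6242174, minus strand) encodes the heavy chain of the conventional kinesin motor in most tissues. Its levels in Nes-GFP high BMSCs were 4.41 and 69.2 CPM for normal and 129 and 91.9 CPM for AML mice. Both AML libraries lay above both normal ones, but the 2 normal libraries differed 15.7-fold from each other. The log2 fold change was 1.59 (SE 0.98, edgeR adjusted p = 0.536) and ranged from 0.78 without normal replicate 1 to 4.59 without normal replicate 2 (adjusted p = 0.0735), so it rested on which normal library was kept. Among Nes-GFP low BMSCs Kif5b was at 81.4, 50.6, 95.4 and 53.0 CPM in AML and at 34.7 to 113 CPM, median 64.1, in normal mice, with a log2 fold change of 0.07 (95% interval -1.26 to 1.39).

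Summed over paralogs, the Miro and TRAK genes showed opposite extremes in the 2 normal Nes-GFP high libraries. Rhot1 and Rhot2 together came to 136 CPM in replicate 1 and 2.27 CPM in replicate 2, whereas Trak1 and Trak2 together came to 1.77 CPM in replicate 1 and 147 CPM in replicate 2. No other library had so low a TRAK sum or so low a Miro sum. Of the AML Nes-GFP high libraries, replicate 1 had 8.80 CPM of Miro and 37.0 CPM of TRAK transcripts, and replicate 2 had 63.0 and 150 CPM. Among Nes-GFP low BMSCs the Miro sum was 39.4, 45.1, 55.1 and 4.89 CPM in AML and 52.0 to 90.2 CPM in normal mice, and the TRAK sum 64.3 to 115 CPM and 48.8 to 116 CPM. The sum over all 5 transport genes varied less, from 142 to 305 CPM over the 14 libraries.

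**Figure D2:**
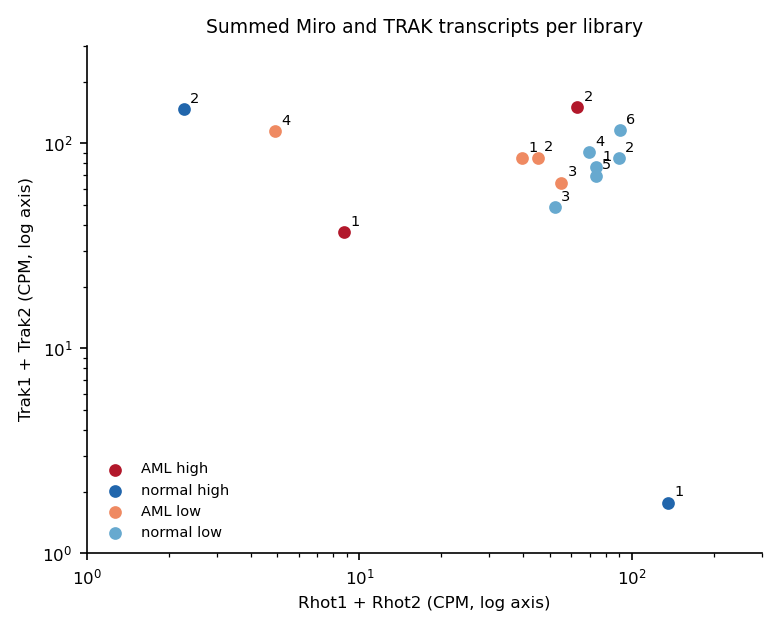
Summed Trak1 and Trak2 level against summed Rhot1 and Rhot2 level in each of the 14 libraries, in CPM on log axes, colored by group and numbered by replicate. Normal Nes-GFP high replicate 1 (136 and 1.77 CPM) and replicate 2 (2.27 and 147 CPM) sit in opposite corners, and the 6 normal Nes-GFP low libraries lie together at 52.0 to 90.2 CPM of Miro transcripts.

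Libraries of one group differed more in Trak2 and Rhot1 than in most genes. On the log2 scale (CPM + 1), the SD within groups was 1.89 for Trak2, 1.87 for Rhot1, 1.54 for Trak1, 1.5 for Gja1 and 1.43 for Rhot2, against a median of 1.36 and quartiles of 0.846 and 1.84 over the 10759 genes that averaged 10 CPM or more. Trak2 and Rhot1 lay above the upper quartile, while Trak1, Gja1, Rhot2 and Kif5b lay between the quartiles. Kif5b (0.989) was below the median and Tnfaip2 (0.829) below the lower quartile. Of the 10759 genes, 77.6% had a smaller SD than Trak2, 76.7% than Rhot1, 59.7% than Trak1, 53.5% than Rhot2 and 24.1% than Tnfaip2.

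Gja1 (ENSMUSG00000050953, GRCm38 chr10:56377330-56402513, plus strand) encodes Cx43, the main gap junction protein of marrow stroma. In Nes-GFP low BMSCs it was at 423, 82.3, 14.2 and 169 CPM in AML and at 118 to 894 CPM, median 294, in normal mice. AML replicates 2 and 3 lay below every normal library, and AML replicates 1 and 4 lay inside the normal range. The means were 172 ± 179 CPM (SD, n = 4) for AML and 453 ± 347 CPM (SD, n = 6) for normal mice, and the log2 fold change of -1.40 had an SE of 0.85 and a 95% interval of -3.23 to 0.44 (edgeR adjusted p = 1.0). It was -1.01 without AML replicate 3, the library with the least Gja1, and -2.43 without AML replicate 1, the one with the most.

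In Nes-GFP high BMSCs Gja1 was at 545 and 794 CPM for normal and at 145 and 906 CPM for AML mice. The AML libraries lay on both sides of the normal ones. The log2 fold change was -0.35 (SE 1.26) for AML against normal, 0.56 (SE 1.0) for Nes-GFP high against low in normal mice and 1.61 (SE 1.05, edgeR adjusted p = 0.628) for the same contrast in AML mice, where it was -0.24 without AML Nes-GFP high replicate 2.

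Gja1 was higher in libraries with more stroma marker transcripts. The summed level of 10 stroma markers (Cxcl12, Lepr, Kitl, Pdgfra, Pdgfrb, Ebf3, Foxc1, Vcam1, Col1a1 and Col1a2), all 10 detected in every library, was 31750, 2849, 837.7 and 7120 CPM in AML Nes-GFP low replicates 1 to 4, against 5669 to 67580 CPM, median 24480, over those from normal mice. The AML library with the highest sum also had the highest Gja1 and the one with the lowest sum the lowest. The sum is weighted toward its most abundant genes, and the markers did not always go together. Normal Nes-GFP high replicate 1 had the highest sum of the 14 libraries, 82630 CPM, but 6690 CPM of Cxcl12 and 0.883 CPM of Pdgfrb. Normal Nes-GFP high replicate 2 had a sum of 59710 CPM, with 42600 CPM of Cxcl12 and 1050 CPM of Pdgfrb. Over the 14 libraries the correlation of Gja1 with the sum (Pearson on log2(CPM + 1)) was 0.946, with Spearman's rho 0.886, and r was 0.902 without the 2 libraries farthest from the median. The points share a library and its scaling, and the correlation is a description. In bulk libraries fewer stromal cells and less Gja1 RNA per cell cannot be told apart. The 12 myeloid markers, all detected in every library, summed to 6199 to 95300 CPM in AML and 729.9 to 102300 CPM in normal Nes-GFP low libraries and went the other way (r = -0.738). The part of either marker group in the Gja1 values was not tested.

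**Figure D3:**
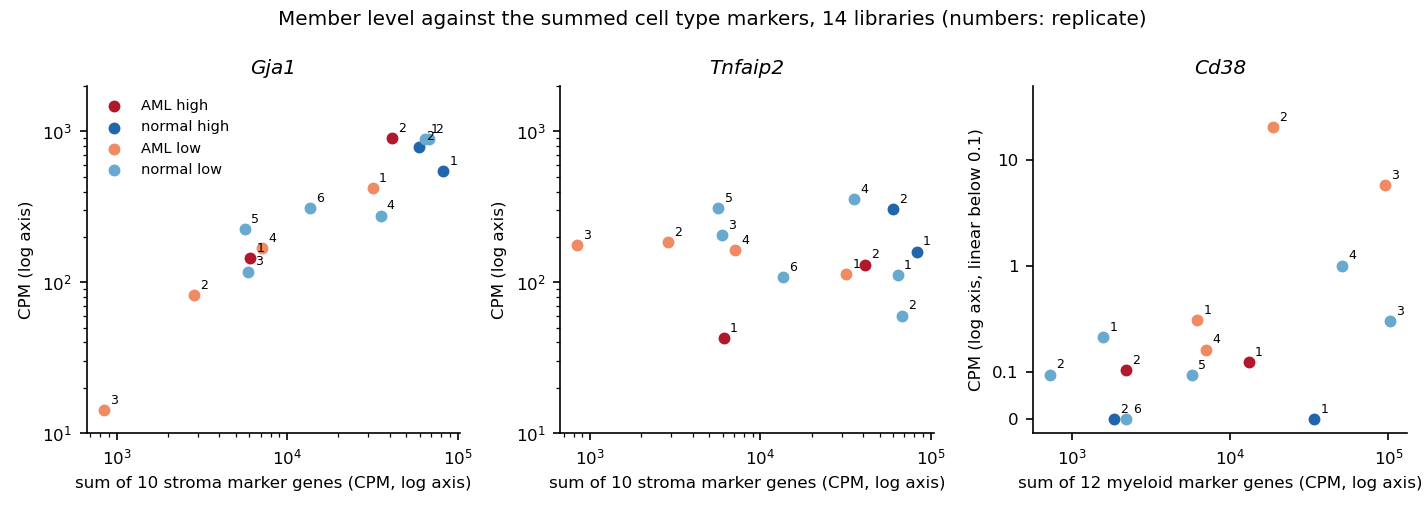
Level of Gja1 and Tnfaip2 against the summed stroma markers, and of Cd38 against the summed myeloid markers, in the 14 libraries (CPM, log axes, linear below 0.1 CPM for Cd38), colored by group and numbered by replicate. Gja1 climbs with the stroma sum from 14.2 CPM at 837.7 CPM of markers, Tnfaip2 shows no such slope (r = -0.0919), and Cd38 is high in AML Nes-GFP low replicates 2 and 3 but not in normal Nes-GFP low replicates 3 and 4.

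Tnfaip2 (ENSMUSG00000021281, GRCm38 chr12:111442469-111455018, plus strand) encodes M-Sec, which promotes tunneling nanotubes. By its SD within groups, taken over all 4 groups (0.829 on the log2 scale), it was the most even of the 8 genes. In Nes-GFP low BMSCs it was at 114, 184, 176 and 163 CPM for AML and at 60.2 to 357 CPM, median 158, for normal mice. The AML values lay inside the normal range, with means of 159 ± 31.5 CPM (SD, n = 4) and 192 ± 120 CPM (SD, n = 6), and with a log2 fold change of -0.27 (95% interval -1.41 to 0.86). In Nes-GFP high BMSCs Tnfaip2 was at 160 and 306 CPM for normal and at 42.9 and 131 CPM for AML mice. Both AML libraries lay below both normal ones, but the log2 fold change of -1.42 had an SE of 0.83 and did not pass the test (edgeR adjusted p = 0.500). It was -0.84 without AML replicate 1 and -2.48 without AML replicate 2. Unlike Gja1, Tnfaip2 had little relation to the stroma sum (r = -0.0919, rho = -0.314, 14 libraries). With the sum of the 12 myeloid markers its r was 0.361 and its rho 0.437. Gja1 was not the only gene to run against the myeloid sum, since Trak1 did too (r = -0.521, rho = -0.613).

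Cd38 (ENSMUSG00000029084, GRCm38 chr5:43868553-43912375, plus strand) was close to the limit of detection in most libraries. It had 1 count in each AML Nes-GFP high library and 0 in each normal one, at or under the floor of 3 counts, so no fold is given there. The Nes-GFP low BMSCs of AML mice held it at 0.31, 20.4, 5.82 and 0.163 CPM, or 3, 204, 63 and 1 counts. Those of normal mice held it at 0 to 1.01 CPM, median 0.154, with 0 to 11 counts. Replicates 2 and 3 of the AML group stood above every other library, and AML replicates 1 and 4 lay inside the normal range.

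Summed over the Nes-GFP low libraries, Cd38 had 271 counts in AML and 18 in normal mice, a ratio of 26.4 per count sequenced with an exact 95% interval of 16.4 to 45.3 that covers counting error only. Of the 271 counts, 204 came from AML replicate 2 and 63 from replicate 3, so the ratio describes these libraries. Cd38 entered the test only through the same AML replicates 2 and 3, and without either of them it fell under the count filter and had no fitted value. Its fitted log2 fold change of 4.48 (SE 1.38, edgeR adjusted p = 0.642) did not pass the threshold and, given that filter, is a description only. Between Nes-GFP high and low BMSCs of AML mice no fold is given, since the Nes-GFP high libraries had 1 count each and AML Nes-GFP low replicates 1 and 4 had 3 and 1.

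Myeloid markers were high in the AML Nes-GFP low libraries that held Cd38, but not in those alone. The 12 myeloid markers summed to 18690 and 95300 CPM in AML Nes-GFP low replicates 2 and 3. They summed to 102300 and 50960 CPM in normal Nes-GFP low replicates 3 and 4, where Cd38 was at 0.30 and 1.01 CPM. Ptprc was at 184 and 447 CPM in the AML pair and 476 and 483 CPM in the normal pair. The 2 genes whose levels were most like Cd38 were Ms4a6d (r = 0.880) and Flt3 (r = 0.877, both over 14 libraries), a receptor of hematopoietic progenitors. Flt3 stood at 182 and 162 CPM in AML Nes-GFP low replicates 2 and 3, at 26.4 CPM in normal Nes-GFP low replicate 3 and at most at 1.63 CPM elsewhere. The part of blood cells in the Cd38 values was not tested. Cd38 also overlaps Gm16014 on its own strand and Gm16015 on the opposite strand. Reads of Gm16015 were not told apart from those of Cd38, and the strand setting is not stated.

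All 8 genes passed the filter on low counts, and none was called in any of the 5 comparisons (edgeR's quasi-likelihood test, Benjamini-Hochberg adjusted p under 0.05 over 18152 genes, two-sided), and edgeR called 0% of all genes as well. At an unadjusted edgeR p under 0.05, 0 of 8 passed for AML against normal in Nes-GFP high BMSCs, where 12.2% of all genes did. In Nes-GFP low BMSCs the background was 5.54% of all genes, and the single gene of the 8 under that p was Cd38, which entered through AML replicates 2 and 3, where it is high, and so gives no support. For Nes-GFP high against low the counts were 0 of 8 against 11.2% of genes in normal mice, and in AML mice, where the background was 8.97%, again Cd38 alone, with the same limit. For the interaction, that is AML against normal in Nes-GFP high minus the same contrast in Nes-GFP low, it was 0 of 8 against 9.96%.

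Other tools gave no call on these genes either. DESeq2 called 9.77% of genes for AML against normal in Nes-GFP high, 0.681% in Nes-GFP low, 10.7% for Nes-GFP high against low in normal and 6.84% in AML mice, and 4.79% for the interaction, with 0 of the 8 among them. Limma voom with sample weights called 0% in 4 comparisons and 0.00551% of genes, a single gene, for Nes-GFP high against low in AML mice, and 0 of the 8. The smallest adjusted p of any of the 8 genes in any setting was 0.0673, for Cd38 with DESeq2 between Nes-GFP high and low BMSCs of AML mice.

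Few libraries leave many genes with group ranges that do not overlap, so counts are set beside those of all genes. Such ranges were found for 2 of 8 genes between the Nes-GFP high BMSCs of AML and normal mice (Kif5b higher, Tnfaip2 lower in AML), against 27.5% of all genes, and for 0 of 8 in Nes-GFP low BMSCs, against 1.11%. Between Nes-GFP high and low BMSCs they were found for 0 of 8 in normal mice, against 11.3%, and for 0 of 8 in AML mice, against 15.7%. Cd38 is not counted in either Nes-GFP high comparison of AML libraries, because its ranges there part at 1 count against 0 or 1, under the floor of 3 counts. The shares over all genes apply no such floor. By their rule Cd38 would count in both comparisons, as higher in AML than normal Nes-GFP high and as lower than in AML Nes-GFP low BMSCs. Leaving out Cd38, the median log2 fold change of the other 7 genes was -0.12 against 0.08 over all genes for AML in Nes-GFP high, and -0.27 against 0.00341 in Nes-GFP low BMSCs. For Nes-GFP high against low it was 0.16 against -0.27 in normal and 0.33 against -0.105 in AML mice. AML against normal in Nes-GFP high BMSCs was also fitted without normal Nes-GFP high replicate 1, the library that went against its label in Nes. The log2 fold changes were then 3.90 for Rhot1, 4.58 for Rhot2, -0.94 for Trak1 and 2.19 for Trak2. They were 0.78 for Kif5b, -0.46 for Gja1 and -1.68 for Tnfaip2.

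**Figure D4:**
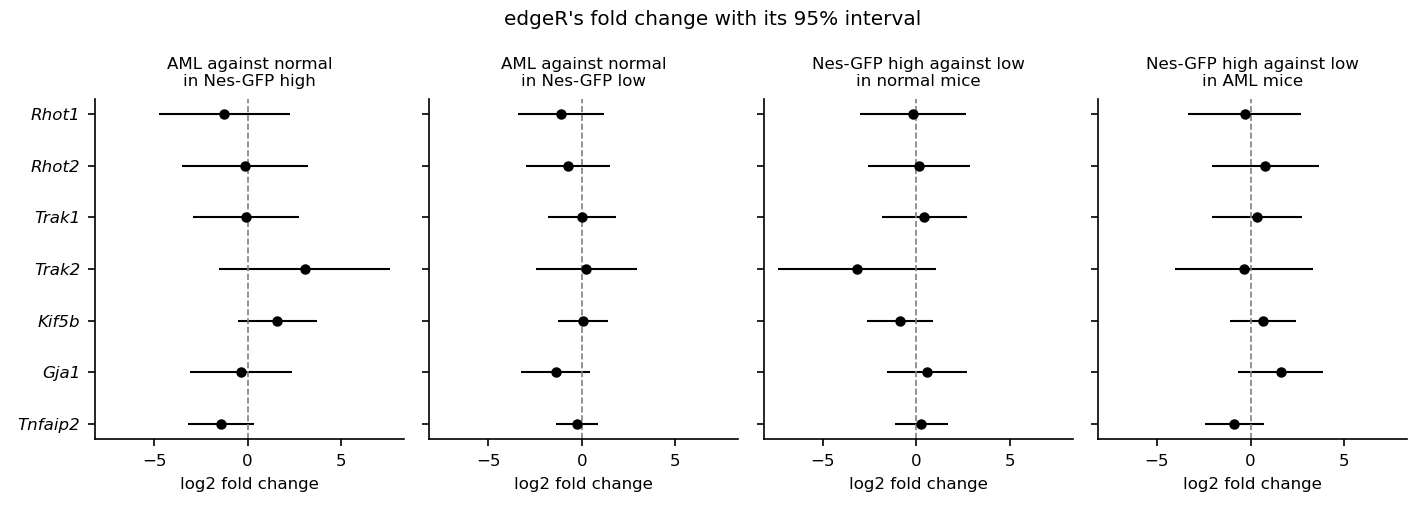
Log2 fold change from edgeR (points) with its 95% interval (bars) for 7 of the genes in 4 comparisons, with a dashed line at no change. All intervals drawn cover 0, and Cd38 is not drawn because it was under 3 counts in every Nes-GFP high library and entered the test only through AML Nes-GFP low replicates 2 and 3.

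The interaction, the AML effect in Nes-GFP high minus that in Nes-GFP low BMSCs, was farthest from 0 for Trak2 (2.81 on the log2 scale, SE 2.41, edgeR adjusted p = 0.861) and Kif5b (1.52, SE 1.15, adjusted p = 0.793). It was -1.14 (SE 0.97) for Tnfaip2, 1.05 (SE 1.51) for Gja1 and 0.62 (SE 1.87) for Rhot2. For Rhot1 (-0.13, SE 1.91) and Trak1 (-0.10, SE 1.56) it was near 0 with wide errors. None passed the test, and errors of this size do not show that the effects were alike.

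Between Nes-GFP high and low BMSCs the transport genes showed no common direction. In normal mice the log2 fold change was -3.16 (SE 1.97, edgeR adjusted p = 0.534) for Trak2, -0.86 (SE 0.83) for Kif5b, -0.18 (SE 1.32) for Rhot1, 0.16 (SE 1.27) for Rhot2 and 0.44 (SE 1.05) for Trak1. In AML mice it was 0.66 (SE 0.81) for Kif5b, 0.78 (SE 1.32) for Rhot2, 0.33 (SE 1.12) for Trak1, -0.31 (SE 1.41) for Rhot1 and -0.36 (SE 1.72) for Trak2. Tnfaip2 was at 0.28 (SE 0.65) in normal and -0.87 (SE 0.73) in AML mice. Because the 2 normal Nes-GFP high libraries differ so widely, the normal contrast of Rhot1 was -5.33 without replicate 1 and 0.87 without replicate 2, and that of Trak1 1.27 and -4.81.

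The 8 genes did not move as a block from library to library. Over the 14 libraries the highest correlation among them was that of Trak1 and Kif5b (r = 0.737), followed by Rhot1 and Rhot2 and by Trak2 and Tnfaip2 (both r = 0.502), and the lowest that of Gja1 and Cd38 (r = -0.664). Among 10759 genes, those most like Gja1 were Aldh7a1 (r = 0.981), an aldehyde dehydrogenase, and Gpx8 (r = 0.979), a peroxidase of the endoplasmic reticulum. Those most like Rhot1 were Pi4k2b (0.951) and Tmem126b (0.939), an assembly factor of respiratory complex I. For Trak1 they were Fez2 (0.932) and Esr1 (0.918), the estrogen receptor gene, for Trak2 Mad1l1 (0.945) and Tbc1d14 (0.911), and for Kif5b Zbtb2 (0.919) and Myo5a (0.904), a myosin motor gene. Rhot2 was most like 0610030E20Rik (0.843) and Zfp821 (0.806), and Tnfaip2 like Rbbp5 (0.793) and Gm6430 (0.785). These values rank genes over 14 libraries that share depth and scaling, and they carry no test.

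Other genes of the pathway were taken as 4 lists. Of 30 partners in mitochondrial transport (kinesin and dynein subunits, anchors, metaxins), 28 were tested and 0 were called by edgeR in any comparison, with a median log2 fold change of -0.48 against 0.00341 over all genes for AML in Nes-GFP low and 0.05 against 0.08 in Nes-GFP high BMSCs. The dynein intermediate chain gene Dync1i1 was at 16.8 and 19.6 CPM in normal against 0.124 and 0.314 CPM in AML Nes-GFP high BMSCs (edgeR adjusted p = 0.282), and DESeq2 called it lower. The neuronal kinesin gene Kif5a was above 0.1 CPM only in AML Nes-GFP low replicate 2 (13.6 CPM) and normal Nes-GFP high replicate 2 (10.2 CPM). DESeq2 also called the anchor gene Snph in 2 comparisons, named here after its values were seen.

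All 23 genes for nanotubes and actin protrusions were tested, with 0 calls by edgeR and medians of 0.15 for AML in Nes-GFP low and -0.04 in Nes-GFP high BMSCs. Exoc6, a subunit of the vesicle-tethering exocyst complex, was at most at 1.13 CPM in the 4 Nes-GFP high libraries, at 29.6 to 114 CPM in AML Nes-GFP low and at 0.643 to 66.4 CPM in normal Nes-GFP low libraries. Its log2 fold change for Nes-GFP high against low was -5.31 (SE 2.05, edgeR adjusted p = 0.381) in normal and -6.35 (SE 2.18, adjusted p = 0.502) in AML mice, and DESeq2 called both. The filamin gene Flna was at 143 and 293 CPM in normal against 517 and 716 CPM in AML Nes-GFP high BMSCs, without overlap (log2 fold change 1.5, SE 0.72, edgeR adjusted p = 0.421).

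Of 23 other connexins, pannexins and partners of Cx43, 13 were in the table used here and 8 were tested, with 0 calls by edgeR. Tjp1, whose product ZO-1 binds Cx43, was at 0 and 0.567 CPM in normal against 16.4 and 41.8 CPM in AML Nes-GFP high BMSCs. Among Nes-GFP low BMSCs it was at 0.20 to 1.44 CPM in AML and 0.507 to 23.3 CPM in normal mice. Its edgeR adjusted p was 0.279 in Nes-GFP high and 0.568 in Nes-GFP low BMSCs, and DESeq2 called it in all 5 comparisons. The connexin gene Gjb6 was at 34.3 and 0.209 CPM in AML Nes-GFP high, at most at 0.206 CPM in AML Nes-GFP low and at 0.281 to 44.9 CPM in normal Nes-GFP low BMSCs, and DESeq2 called it in 4 comparisons. Panx1, named after its values were seen, was called lower in AML Nes-GFP high BMSCs by DESeq2.

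Of 8 genes of cyclic ADP-ribose signaling and NAD turnover at the cell surface, 5 were tested, with 0 calls by edgeR or DESeq2. Nt5e, the ectonucleotidase CD73, was at 39.5 and 11.8 CPM in normal against 395 and 33.4 CPM in AML Nes-GFP high BMSCs, with overlapping groups (log2 fold change 3.06, SE 1.31, edgeR adjusted p = 0.383). The calcium channel gene Ryr1 did not exceed 8.32 CPM in any library. The median log2 fold change of this list was 1.47 for AML in Nes-GFP high and -0.35 in Nes-GFP low BMSCs. That of the connexin list was 2.34 and -1.26, against 0.08 and 0.00341 over all genes. These medians rest on only 5 and 8 tested genes, some of them near 0 counts. Tjp1 and Gjb6 each had 0 and 4 counts in normal Nes-GFP high replicates 1 and 2.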

How the data were processed

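RNA from sorted Nes-GFP high and low BMSCs was amplified by the authors with Smart-seq2 and sequenced. Per the labels and the study's methods, reads were trimmed with Trim Galore 0.4.1, aligned to mm10 with TopHat2 2.1.0 and counted per gene with featureCounts. The strand setting is not given in the sources used here. The deposited values are whole-number counts per gene symbol, without normalization. Of 16 library columns, 2 matched no sample and were not used. Totals were 5615941 to 11436652 counts. Reads carry no molecular identifiers, so intervals and floors cover counting error only.

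Counts were tested with edgeR 4.0.16 in R 4.3.3 (quasi-likelihood, 14 libraries, 4 groups, TMM, filterByExpr with a minimum count of 10, two-sided). The SE is the log2 fold change divided by the root of F. DESeq2 1.42.0 (the authors used 1.14.1) and limma 3.58.1 voom were alternatives, beside other scalings, filters, a replicate block, the compared groups alone and each library left out. CPM is after TMM. Exon lengths and positions came from GENCODE M21 (GRCm38), and all 8 genes matched. Beside Rhot2 and Cd38, overlapping genes are annotated for Trak1 (C230053D17Rik and Gm47092, own strand). They are also annotated on the opposite strand for Kif5b (AC113003.1 and Gm17036) and Tnfaip2 (Gm40578). Likeness is Pearson's r of log2(CPM + 1) among genes that averaged 10 CPM or more, and the 2 highest are named for each gene. From each list the genes called by edgeR, or otherwise the 2 with the smallest p, are named. The genes and lists were chosen with earlier results of these data known. No pair of libraries within a group was a copy (chi-square per degree of freedom 97.9 to 421, 23 pairs). Pairs across groups were not checked in this way. The steps were tested on simulated data. Python 3.11.15 with pandas 2.3.3, numpy 2.4.6, scipy 1.17.1 and matplotlib 3.10.9 made the tables and figures.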

Additional observations from a re-analysis of the deposited data

Results flagged for a closer look

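Of 16 groups of 4 or 6 libraries examined, 2 for each of the 8 genes, 1 held a library far from the others. Cd38 in normal Nes-GFP low replicate 4 was at 1.01 CPM, or 11 counts, and its gap to the next library was 0.699 of the group's range, above Dixon's critical value of 0.625. The other 5 normal Nes-GFP low libraries held 0 to 3 counts. Chance flags about 1 in 20 such groups. That library also held 50960 CPM of myeloid markers and 483 CPM of Ptprc, and their part in the value was not tested.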

How the results depend on the processing

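The count of called genes among the 8 was 0 in all 109 alternative fits of the 5 comparisons. Of 36 log2 fold changes, 14 kept their sign in every alternative and 22 changed it in at least 1, in 57 of 781 values, none of them called. With limma voom, Rhot2 was 1.52 and Trak1 2.03 for AML against normal in Nes-GFP high, Rhot2 -0.96 and Trak1 -1.53 for Nes-GFP high against low in normal mice, and Trak1 1.73 for the difference of effects. With the replicate block, Rhot2 was 1.33 and Trak1 0.55 in the first of these, Kif5b -0.13 for AML in Nes-GFP low, Rhot2 -0.64, Trak1 -0.81 and Gja1 -0.46 for high against low in normal mice, Trak1 -0.40 in AML mice and Trak1 0.41 for the difference. The numbers were not shown to pair libraries (14 same-number pairs, r -0.2 to 0.496, 4 over 0.1, 1 of 4 AML Nes-GFP low libraries closest to its own number), and edgeR called 0 genes with and without the block. The cause of these changes was not tested.

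Leaving out 1 library gave these ranges where a sign changed. AML against normal in Nes-GFP high: Rhot1 -6.50 to 3.90, Rhot2 -1.14 to 4.58, Trak1 -0.97 to 5.2, Trak2 -3.63 to 10.99, Gja1 -2.24 to 0.42. AML in Nes-GFP low: Trak1 -0.18 to 0.24, Trak2 -0.53 to 0.55, Kif5b -0.12 to 0.28. High against low in normal mice: Rhot1 -5.33 to 0.87, Rhot2 -4.57 to 1.18, Trak1 -4.81 to 1.27, Tnfaip2 -0.20 to 0.55. In AML mice: Rhot1 -5.52 to 0.66, Trak1 -0.55 to 0.88, Trak2 -7.00 to 0.67, Gja1 -0.24 to 2.63. Difference of effects: Rhot1 -5.41 to 5.0, Rhot2 -0.40 to 5.32, Trak1 -1.02 to 5.15, Trak2 -3.87 to 10.76, Gja1 -0.84 to 2.13.

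Where 1 library of a Nes-GFP high group was left, it was assumed to vary like the other groups, and for Trak2 without normal Nes-GFP high replicate 2 that library had 0 counts, so the fitted value depends on the prior count. Cd38 fell under the filter, and had no fitted value, without AML Nes-GFP low replicate 2 or 3, with a mean of at least 10 CPM required, and with only the compared groups in the fit. Levels on plain totals or DESeq2 size factors were 0.816 to 1.2 times those after TMM.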
